A study of Mus musculus with 2 samples.

Results

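Open chromatin between genes was described at 2041 regions that ATAC-seq found in both Dnmt3a knockout and wild-type mouse mast cells. A region was kept if it held a called peak of each library (at least 1 bp of overlap in the merged lists), overlapped no protein-coding gene, and lay more than 1 kb and at most 50 kb from the nearest one. These regions made up 15.9% of the 12871 regions that the libraries shared (exact binomial 95% interval 15.2 to 16.5) and were drawn from 23364 merged regions in all. Since members were selected on having a peak in both lists, their presence in both is a condition and not a finding. Of the other shared regions, 5639 lay at gene ends (within 1 kb), 4309 inside genes and 882 more than 50 kb from any gene.

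ATAC-seq marks accessible DNA by the adapters that the Tn5 transposase, here a home-made preparation, inserts into it. The knockout library came from bone marrow-derived mast cells of DNMT3A-KO mice and the wild-type library from cells of their wild-type littermates. In both genotypes the donors were females, aged 3 weeks by the series' design text and 3 to 4 weeks by its growth protocol, and the marrow was grown for 4 weeks in IL-3 with no further treatment. Over 95% of the cultured cells stained for Kit and FcεRIα, the receptors for stem cell factor and IgE, and sequencing gave single reads of 50 bp, at a depth given as 10 M reads. The engineered allele, any Cre driver and the number of animals behind a culture were not stated in the sources used here. With 1 library per genotype there was no spread between animals, so no difference between knockout and wild type was tested, and intervals cover counting error only.

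Accessible sites between genes include enhancers, which bind transcription factors and act on promoters at a distance, insulators, and promoters of noncoding genes. In mast cells, the tissue granulocytes that release histamine, proteases and cytokines when IgE on their surface is cross-linked, many cell-type-specific enhancers lie outside genes and bind GATA2, MITF, RUNX and ETS factors. Dnmt3a places methyl groups on unmethylated CpG sites, and enhancers are among the places where its loss lowers methylation in blood cells. A region was assigned here to the nearest protein-coding gene as a label of position. The nearest gene need not be the one a region acts on.

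Both peak lists held 1 line per called peak with the authors' own fold enrichment and −log10 q, which rank peaks within a list. The knockout list had 19684 peaks and the wild-type list 17170, and the summit pileup, the number of overlapping fragments at the highest point of a peak, had a median of 9 in either. Of 10 marker genes of mast cells, 9 were the nearest gene to a shared region of any kind and 5 (Fcer1a, Cpa3, Gata2, Cma1 and Il1rl1) to a member, while Hdc, the histamine-forming enzyme gene, had none. Markers with a member numbered 2 of 6 for neutrophils (S100a9 and Ltf), 1 of 6 for macrophages (Marco), 0 of 4 for B cells, 1 of 6 for T and NK cells (Tcf7), 2 of 6 for erythroid cells and megakaryocytes (Pf4 and Gp9) and 0 of 2 for basophils. With any shared region there were 2 of 6 for neutrophils, 2 of 6 for macrophages and 2 of 6 for T and NK cells. The count was 3 of 6 for erythroid cells and megakaryocytes, 0 of 4 for B cells and 0 of 2 for basophils. Of all 21631 protein-coding genes, 8054 were nearest to a shared region and 1683 (7.78%) to a member. The part of other cell types in the regions was not tested. Dnmt3a, Kit, Ms4a2, Mitf, Il13 and Tnf had 0 members, and Dnmt3a was the nearest gene to 4 shared regions outside the set.

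Some members overlapped promoter windows of noncoding genes, and the sequences of a few are shown. Any overlap counted, and at Gm38959 it was 20 bases. RefSeq's table (build GRCm38.p6) gives a window from 250 bases before to 50 after each start, and 84 members (4.12%; interval 3.30 to 5.07) overlapped the window of 87 long noncoding RNA (lncRNA) genes. Regions that covered at least 200 bases of the window and reached 10 in −log10 q in each list were found at 24 genes. The following 5 of these are shown because they have a descriptive name, in place of a clone or model number, and differ in their motifs. Only the part of the window under the region is printed, 5′ to 3′ on the gene's strand. Capitals mark GGGCGGG (KLF/SP type), AGGGGGC (CTCF core), TGTGGTT (RUNX) and CANGTG (E-box) on either strand.
Chaserr (chr7:73558371-73558645, minus strand): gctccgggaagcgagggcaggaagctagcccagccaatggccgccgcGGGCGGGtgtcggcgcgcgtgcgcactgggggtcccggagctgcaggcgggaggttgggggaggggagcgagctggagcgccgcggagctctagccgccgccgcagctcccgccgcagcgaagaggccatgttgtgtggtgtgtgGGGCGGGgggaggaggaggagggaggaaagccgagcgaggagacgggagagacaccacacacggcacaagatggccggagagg
Mir22hg (chr11:75461289-75461588, plus strand): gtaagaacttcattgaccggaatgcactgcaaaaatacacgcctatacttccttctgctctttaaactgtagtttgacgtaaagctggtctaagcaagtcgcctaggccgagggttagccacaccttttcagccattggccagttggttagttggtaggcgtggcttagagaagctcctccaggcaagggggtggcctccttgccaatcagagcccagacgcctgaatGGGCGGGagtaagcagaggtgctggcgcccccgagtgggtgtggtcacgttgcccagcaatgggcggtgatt
Dancr (chr5:74092844-74093109, plus strand): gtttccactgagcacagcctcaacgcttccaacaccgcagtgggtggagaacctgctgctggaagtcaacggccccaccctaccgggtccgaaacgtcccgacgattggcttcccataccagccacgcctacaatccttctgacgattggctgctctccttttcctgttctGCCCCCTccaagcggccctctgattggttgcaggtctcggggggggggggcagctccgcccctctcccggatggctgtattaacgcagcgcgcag
Snhg8 (chr3:123508287-123508586, minus strand): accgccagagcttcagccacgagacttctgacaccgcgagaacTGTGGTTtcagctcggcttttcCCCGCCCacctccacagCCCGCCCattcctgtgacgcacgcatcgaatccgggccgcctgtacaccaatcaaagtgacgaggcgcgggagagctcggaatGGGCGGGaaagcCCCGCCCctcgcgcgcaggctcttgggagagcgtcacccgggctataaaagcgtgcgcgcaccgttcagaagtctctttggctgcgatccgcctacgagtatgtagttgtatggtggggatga
Snhg15 (chr11:6528711-6528955, minus strand): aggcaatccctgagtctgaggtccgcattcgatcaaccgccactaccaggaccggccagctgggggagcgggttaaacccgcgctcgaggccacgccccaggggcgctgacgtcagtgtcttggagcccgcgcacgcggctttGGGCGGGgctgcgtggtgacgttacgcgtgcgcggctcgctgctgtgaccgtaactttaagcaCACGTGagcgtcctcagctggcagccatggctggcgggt

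The printed parts ran from 54.7% (Mir22hg) to 72.7% (Chaserr) G or C, against a median of 53.0% in all windows. The ratio of observed to expected CpG was 0.541 in the Mir22hg window. Of the 24, 4, all at genes known by number, had a ratio under 0.3. Among them were Gm5547 (0.148) and Gm9875 (0.219). The printed part of Chaserr, a lncRNA gene that in mouse limits expression of its neighbour Chd2, was 72.7% G or C, held 29 CpG pairs and carried the KLF/SP motif at 2 places. Its region had a −log10 q of 24.7 in the knockout list and 26.3 in the wild-type list, with a summit pileup of 27 in either. Mir22hg, the host gene of miR-22, had a region with a pileup of 32 in knockout and 31 in wild-type cells. The snoRNA host gene Snhg8 carried the KLF/SP motif at 4 places and the RUNX motif at 1, and its pileup was 28 in knockout and 22 in wild-type cells. At Dancr, a lncRNA gene known to hold back differentiation in several cell types, the pileup was 20 in both, and the window held 1 CTCF core and no KLF/SP motif. Snhg15 held the E-box CACGTG and 1 KLF/SP motif, with a pileup of 13 in both. The other genes with a descriptive name were Crnde (pileup 30 in knockout and 25 in wild-type cells) and Snhg5 (15 in knockout and 11 in wild-type cells).

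A typical lncRNA window under a member resembled a CpG-rich promoter more than the usual lncRNA window did. The ratio of observed to expected CpG, which is low where methylated CpG sites have been lost in evolution, had a median of 0.664 in the 87 windows under members, against 0.228 in 8723 lncRNA windows under no merged region. It reached 0.6 in 57.5% of the windows under members (interval 46.4 to 68.0), against 9.34% of lncRNA windows under no region (8.74 to 9.97), 86.4% of 4828 protein-coding windows under shared regions (85.4 to 87.3) and 28.7% of 10951 protein-coding windows under none (27.9 to 29.6). Median GC content was 55.7% in windows under members and 47.7% in lncRNA windows under no region. It was 62.3% in protein-coding windows under shared regions and 52.0% in those under none. Some of the 87 windows overlap under the same region, such as those of 1810044D09Rik and 4930471M09Rik, and the interval treats them as separate. The lncRNA windows under no region were not chosen by distance to genes, so the comparison is not matched for position.

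**Figure D1:**
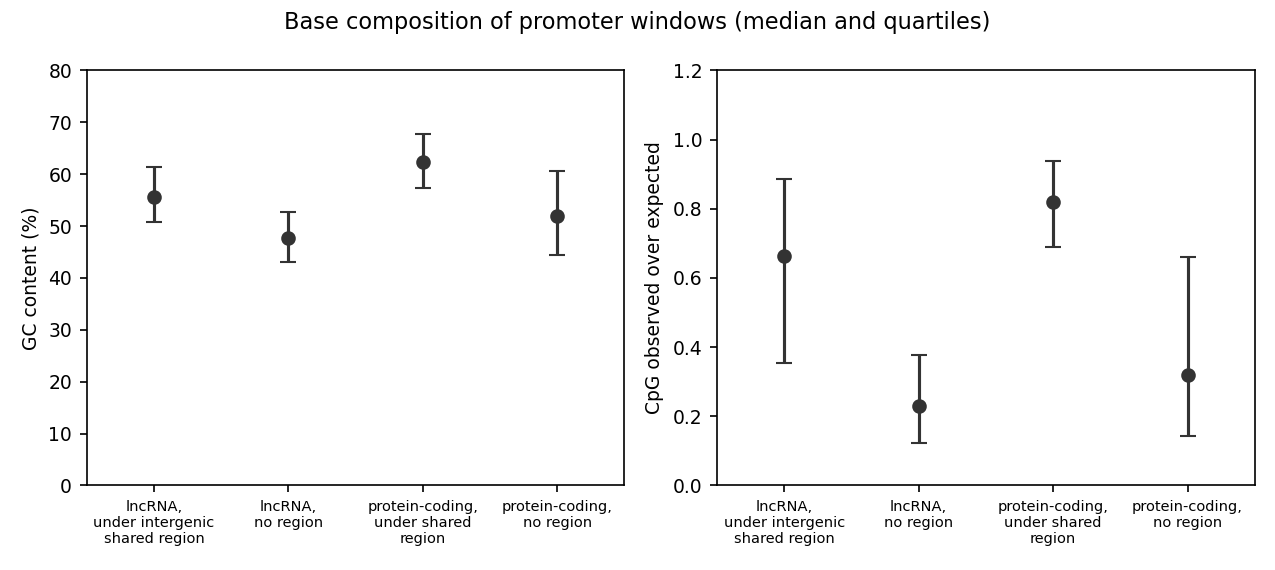
GC content in percent (left) and the ratio of observed to expected CpG (right) of promoter windows, with points at the median and bars over the quartiles. The 87 lncRNA windows under shared intergenic regions (GC 55.7%, CpG ratio 0.664) lay between lncRNA windows under no region (47.7%, 0.228) and protein-coding windows under shared regions (62.3%, 0.821).

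The plot of base composition shows that the quartiles of CpG ratio in windows under members, 0.353 to 0.886, were wide. Members thus overlapped lncRNA promoter windows with few CpG pairs as well as CpG-rich ones. Letter motifs were counted in the same windows on both strands, each window counting once and motifs being allowed to overlap. The KLF/SP motif GGGCGGG was in 37.9% of windows under members and in 25.7% of all 32619 windows, and the PU.1-type ETS motif GAGGAAG in 24.1% and 13.4%. For the CTCF core AGGGGGC the shares were 14.9% under members and 10.7% of all windows, for the RUNX motif TGTGGTT 9.20% and 5.29%, and for the GATA motif AGATAA 8.05% and 11.2%. The AP-1 motif TGANTCA was in 6.90% and 7.85%, the E-box CANGTG in 47.1% and 45.1%, the C/EBP motif TTGCNNAA in 13.8% and 10.9%, the IRF motif GAAANNGAA in 12.6% and 8.53%, and the STAT motif TTCNNNGAA in 11.5% and 8.34%. The pool of all windows holds both gene types and has 32619 windows of 26794 genes, while the 87 belong to 87 genes. Gm32817 and Gm53058 have the same window, which was counted for each. Of lncRNA windows under no region, 7.49% held the KLF/SP motif, 5.46% the CTCF core and 14.8% the GATA motif. Of protein-coding windows under shared regions, 57.3% held the KLF/SP motif, 18.2% the CTCF core and 4.58% the GATA motif. With 87 windows these shares are imprecise, and a match is a run of letters and not a bound site.

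Regions over a lncRNA promoter window had the higher median strength in both lists. A −log10 q of at least 10 was reached by 64.3% of the 84 in the knockout list (interval 53.1 to 74.4) and 52.4% in the wild-type list (41.2 to 63.4). The 1553 members over no annotated gene or window reached it in 51.8% of cases in the knockout list (49.3 to 54.3) and 41.6% in the wild-type list (39.1 to 44.1). Of all shared regions, 59.1% reached it in the knockout list and 50% in the wild-type list. The median pileup over lncRNA windows was 13 in knockout and 11 in wild-type cells, against 10 in knockout and 9 in wild-type cells over no annotated gene. The intervals of the shares overlapped in each list.

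Several members lay close to microRNA genes of blood cells. MicroRNAs are short RNAs that pair through their seed, bases 2 to 8, with messenger RNAs and lower their output. Of 1005 hairpins in RefSeq's table, 24 lay within 5 kb of 18 members, with the member on the upstream side of 18 of the hairpins, downstream of 4 and overlapping 2. Some hairpins share a member, so these are counts of hairpins and not of separate members. Hairpins near shared regions of other classes were not counted, so whether this closeness is particular to members is not known. The table gives 37 mature sequences for 23 of these hairpins, with 37 different seeds. The following 8 belong to hairpins with known roles in blood or hypoxia, chosen after their positions were seen; capitals mark the seed.
mmu-miR-223-3p (chrX:96242884-96242905, plus strand): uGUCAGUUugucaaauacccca
mmu-miR-142a-3p (chr11:87756903-87756925, plus strand): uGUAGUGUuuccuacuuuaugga
mmu-miR-142a-5p (chr11:87756867-87756887, plus strand): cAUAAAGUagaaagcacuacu
mmu-miR-22-3p (chr11:75463772-75463793, plus strand): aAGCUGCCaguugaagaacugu
mmu-miR-210-3p (chr7:141221407-141221428, minus strand): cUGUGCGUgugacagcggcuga
mmu-miR-23a-3p (chr8:84208563-84208583, plus strand): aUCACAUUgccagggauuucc
mmu-miR-27a-3p (chr8:84208727-84208747, plus strand): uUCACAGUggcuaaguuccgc
mmu-miR-24-3p (chr8:84208875-84208896, plus strand): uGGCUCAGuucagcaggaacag

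The region nearest to Mir210, the microRNA gene best known for its induction by hypoxia, lay 232 bp upstream of the hairpin (chr7:141221725-141222104). Its −log10 q was 31.3 in the knockout list and 17.2 in the wild-type list, at a pileup of 26 in knockout and 17 in wild-type cells. Mir142, a microRNA gene of all blood lineages, had a region 1201 bp upstream with a pileup of 21 in knockout and 27 in wild-type cells. For Mir223, a myeloid microRNA gene on chromosome X, the region lay 2855 bp upstream and overlapped the promoter window of the lncRNA gene F630028O10Rik. Its pileup was 9 in knockout and 8 in wild-type cells, just below the member medians of 10 in knockout and 9 in wild type. The cluster of Mir23a, Mir27a and Mir24-2 had a region between 4187 and 4484 bp upstream of its 3 hairpins, with a pileup of 21 in knockout and 15 in wild-type cells. Mir22 lay 2080 bp downstream of the region over the Mir22hg promoter printed above.

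Members were mostly short and were densest near genes. Their median width was 200 bp (quartiles 165 and 249, range 103 to 1003), and they covered 443 kb. The median distance to the nearest protein-coding gene was 12209 bp (quartiles 5635 and 23978), and 876 of the 2041 (42.9%; interval 40.8 to 45.1) lay within 10 kb. Of the 1603 whose nearest gene had a strand in RefSeq's table, 858 (53.5%; 51.0 to 56.0) lay upstream of the gene and 745 downstream. A lncRNA gene was overlapped by 431 members (21.1%), another noncoding gene by 39, and 1571 (77.0%) overlapped no annotated gene.

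Density fell with distance from genes. Per Mb of intergenic DNA at the same distance there were 4.01 members (interval 3.65 to 4.40) at 1 to 5 kb, 4.12 (3.74 to 4.53) at 5 to 10 kb, 3.57 (3.27 to 3.89) at 10 to 20 kb, 2.92 (2.60 to 3.28) at 20 to 30 kb, 2.85 (2.48 to 3.25) at 30 to 40 kb and 2.45 (2.07 to 2.87) at 40 to 50 kb. Regions found in 1 library only thinned out likewise. The 1421 knockout-only regions of the same zone had a density of 2.89 per Mb at 1 to 5 kb and 2.03 at 30 to 40 kb, and the 872 wild-type-only regions 1.80 per Mb at 1 to 5 kb and 1.11 at 30 to 40 kb. Over the whole zone of 594 Mb the density was 3.43 per Mb for members (3.29 to 3.59), 2.39 for knockout-only and 1.47 for wild-type-only regions.

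**Figure D2:**
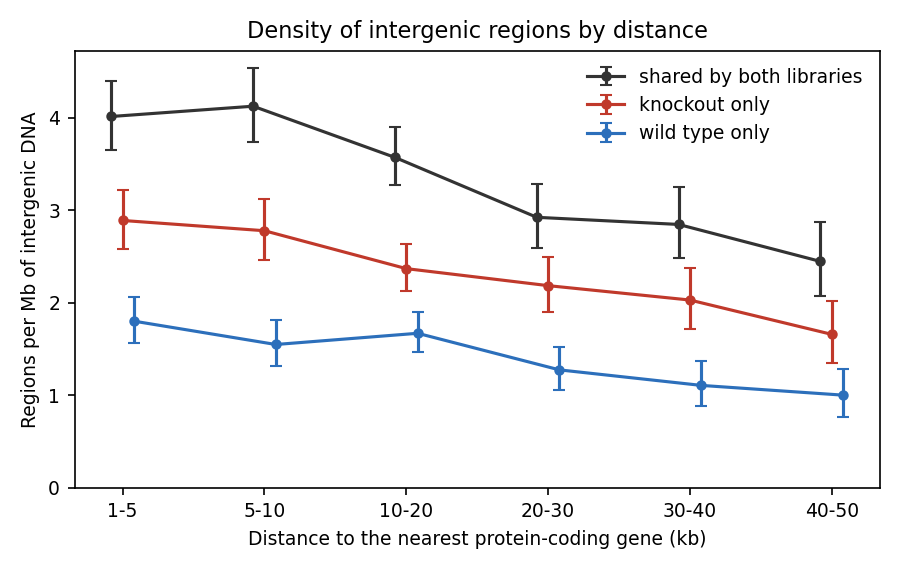
Regions per Mb of intergenic DNA (vertical axis) by distance to the nearest protein-coding gene in kb (horizontal axis), for shared regions and those of the knockout or the wild-type list alone, with exact Poisson 95% intervals as bars. Shared regions fell to 2.45 per Mb at 40 to 50 kb, against 4.01 at 1 to 5 kb, and both unshared sets lay below them in every distance class.

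The plot of density by distance places all 3 curves in the same order at each distance, shared above knockout-only above wild-type-only. The knockout list was also the longer one. Just inside the 1 kb limit were regions 1003 bp from Sec14l2 (pileup 7 in knockout and 6 in wild-type cells) and 1010 bp from Bhlhe40 (14 in knockout and 15 in wild-type cells), and just outside it regions 990 bp from Mex3b (20 in knockout and 16 in wild-type cells) and 997 bp from Gorab (18 in knockout and 8 in wild-type cells). At the 50 kb limit, regions 49755 bp from Cstad (8 in knockout and 4 in wild-type cells) and 49957 bp from Tmco5 (9 in knockout and 8 in wild-type cells) were inside, and regions 50160 bp from Neurod6 (8 in knockout and 8 in wild-type cells) and 50203 bp from Rgs8 (6 in knockout and 4 in wild-type cells) outside.

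Shared sites between genes were weaker than those at gene ends in both libraries. A −log10 q of at least 10 was reached by 1053 members (51.6%; interval 49.4 to 53.8) in the knockout list, against 59.1% of all shared regions, and by 854 (41.8%; 39.7 to 44.0) in the wild-type list, against 50% of all shared regions. Shared regions at gene ends reached it in 66.8% of cases in the knockout list and 57.9% in the wild-type list. Those inside genes did so in 54.7% (53.2 to 56.2) in the knockout list and 44.6% (43.1 to 46.1) in the wild-type list, and those over 50 kb away in 48.8% in the knockout list (45.4 to 52.1) and 45.1% in the wild-type list (41.8 to 48.5). Members lay below regions inside genes in both lists. Against regions over 50 kb away they lay above in the knockout list and below in the wild-type list. Their intervals met those of both classes in both lists, which does not show that the classes are alike.

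**Figure D3:**
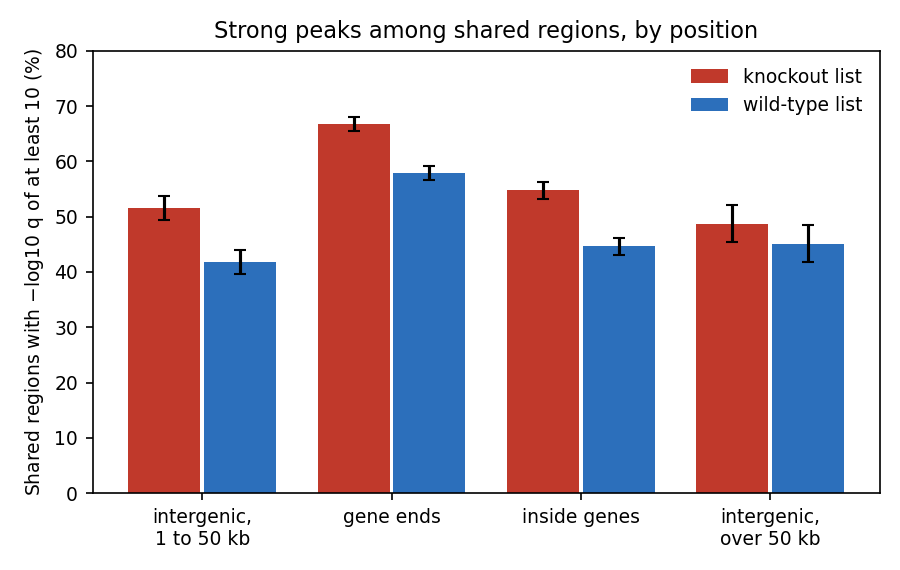
Percent of shared regions that reached a −log10 q of 10 (vertical axis, from 0) by position, in the knockout and the wild-type list, with exact binomial 95% intervals as bars. Intergenic regions 1 to 50 kb from genes (51.6% in the knockout and 41.8% in the wild-type list) lay below gene ends (66.8% in the knockout and 57.9% in the wild-type list).

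The plot by position compares classes within 1 list. A limit on q acts differently on libraries of unequal depth, and library and genotype cannot be told apart. The median pileup of members was 10 in the knockout library (quartiles 7 and 14, range 4 to 46) and 9 in the wild-type library (7 and 13, range 4 to 54), against 13 in knockout and 12 in wild-type cells at gene ends. Both lists passed the limit at 666 members (32.6%), against 41.2% of all shared regions. The knockout list alone passed it at 387 (19.0%), against 18% of all shared regions, and the wild-type list alone at 188 (9.21%), against 8.87%. The pileup was larger in the knockout library at 1052 members (51.5%, against 54.8% of all shared regions), larger in the wild-type library at 699 and the same at 290. Downstream members passed it in 54.1% of cases in the knockout list (50.4 to 57.7) and 45.0% in the wild-type list (41.4 to 48.6), and upstream members in 48.1% in the knockout list (44.7 to 51.5) and 37.3% in the wild-type list (34.1 to 40.6).

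Peaks of most members had their summits close together in the libraries. Their summits were a median of 27 bp apart, 1551 (76.0%) lay within 50 bp of each other, and the largest offset was 321 bp. All shared regions were alike in this, with a median of 29 bp and 73.6% within 50 bp, and overlap of the peaks was a condition of the choice. The order of members by −log10 q agreed moderately between the lists, with a Spearman coefficient of 0.603 across the 2041 regions, against 0.736 across the 5639 at gene ends and 0.598 across the 4309 inside genes. These points share libraries, peak caller and depth, and the values describe these 2 lists only.

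**Figure D4:**
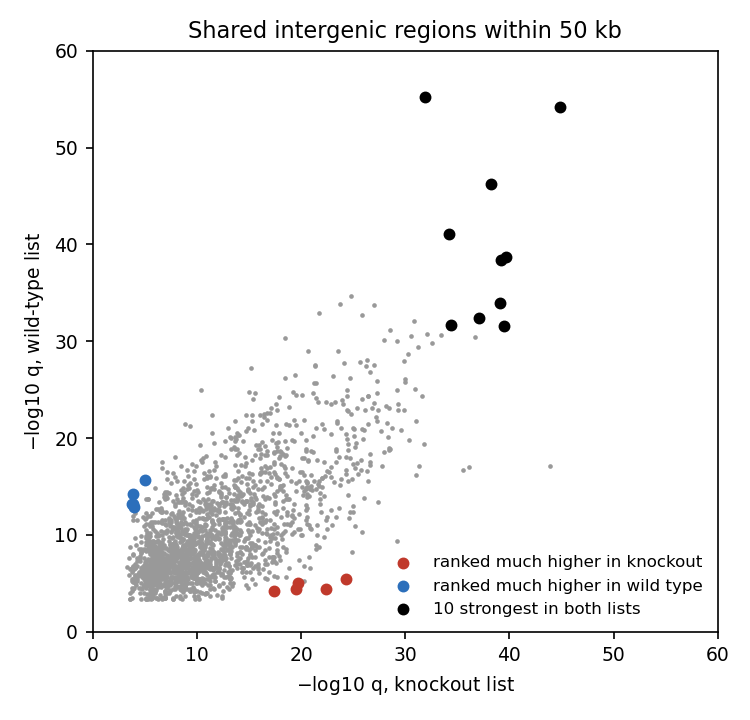
Each point is 1 of the 2041 shared intergenic regions, with its −log10 q in the knockout list (horizontal) and the wild-type list (vertical), the 10 strongest in black and those ranked much higher in 1 list in colour. The region nearest Rpp21 (44.8 in the knockout and 54.2 in the wild-type list) is at the upper right and most regions lie below 20 on both axes.

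The strongest members, at the upper right of the plot of both lists, were ranked by the lower of their 2 values. First came a region 24023 bp from Rpp21, a subunit gene of the tRNA-processing enzyme RNase P (chr17:36231208-36231650), with a −log10 q of 44.8 in the knockout list and 54.2 in the wild-type list and a pileup of 46 in knockout and 54 in wild-type cells. Next was a region 5389 bp upstream of Cd209a, a C-type lectin gene, with a pileup of 28 in both. The region 12297 bp upstream of Ifngr2, an interferon gamma receptor chain gene, had a pileup of 31 in knockout and 35 in wild-type cells. The others lay by C2cd5, Utp18, Pex5, Auh, Gtpbp4, Lrrk1 and Clca1, with pileups between 22 and 40 in knockout and between 30 and 40 in wild-type cells. The region by Gtpbp4, a ribosome assembly gene, had a pileup of 22 in knockout cells (interval 13.8 to 33.3) and 38 in wild-type cells (26.9 to 52.2), with overlapping intervals.

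Some members ranked far apart in the lists and were picked for that difference, so their values are a description. In favour of the knockout list these were regions by Hs2st1, a heparan sulfate sulfotransferase gene, with a pileup of 22 in knockout cells (13.8 to 33.3) and 6 in wild-type cells (2.20 to 13.1); by Tle4, a co-repressor gene, with 16 in knockout and 4 in wild-type cells; by P4ha2, a collagen-modifying enzyme gene, with 19 in knockout and 5 in wild-type cells; and by Phlda1 (15 in knockout and 5 in wild-type cells) and Lrrn2 (13 in knockout and 4 in wild-type cells). In favour of the wild-type list they were regions by Ffar2, a short-chain fatty acid receptor gene, with 6 in knockout cells (2.20 to 13.1) and 15 in wild-type cells (8.40 to 24.7), and by Srrm1 (5 in knockout and 13 in wild-type cells), Jazf1 (4 in knockout and 11 in wild-type cells), Letmd1 (4 in knockout and 11 in wild-type cells) and Piezo1, a mechanosensitive channel gene (5 in knockout and 13 in wild-type cells). The smaller pileup of every pair was at most 6 fragments.

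Few members had a region of 1 library close by. Within 5 kb, 157 members (7.69%; interval 6.57 to 8.93) had a knockout-only region and 109 (5.34%; 4.41 to 6.41) a wild-type-only region, against 7.06% of all shared regions with a knockout-only and 5.84% with a wild-type-only one. The intervals of the members held the shares of all shared regions at this window. At 10 kb, 16.5% of members (14.9 to 18.2) had a knockout-only region, against 14.4% of all shared regions, and 11.4% (10.1 to 12.9) a wild-type-only region, against 10.3%. With the lists reduced to equal numbers of peaks the order at 5 kb turned round, with 5.64% for knockout-only and 6.33% for wild-type-only regions.

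The Gata2 locus on chromosome 6 held 9 members within 118.5 kb of the gene. Gata2 encodes the GATA factor that mast cells need for their identity, and in mouse blood progenitors a distal enhancer of it lies beside the neighbouring gene Rpn1. The gene runs from 88193891 to 88207032 on the plus strand. Before its start lay 5 members whose nearest gene was Rpn1, at 118.5, 86.9, 77.4, 76.7 and 69.7 kb, and 1 at 3.99 kb. Past its end lay 3 members nearest to Eefsec, a selenocysteine translation factor gene, at 35.7, 45.0 and 47.1 kb.

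**Figure D5:**
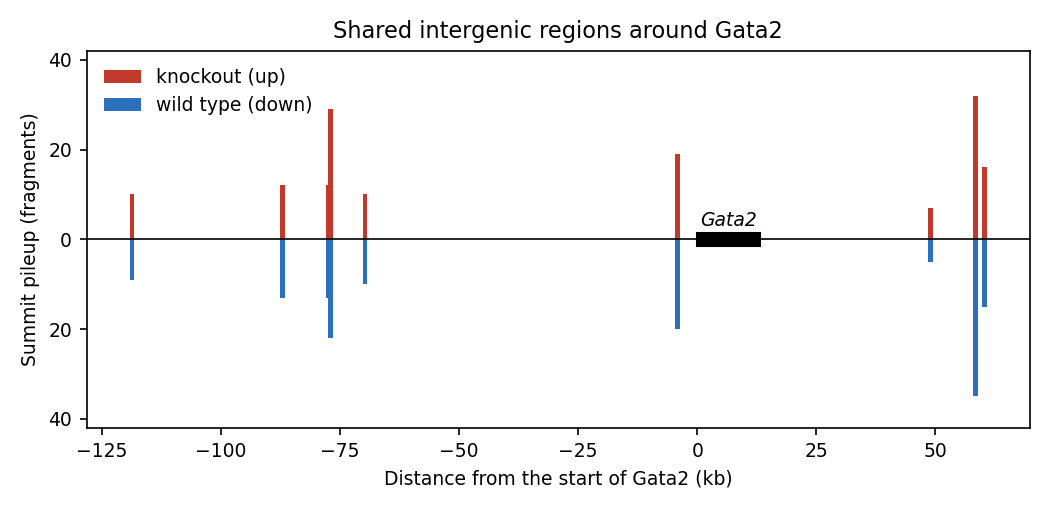
Summit pileup in fragments of the shared intergenic regions around Gata2 (knockout up, wild type down) by distance from the start of the gene in kb, with the gene as a black box. The tallest bars, at 76.7 kb before the start (29 in knockout and 22 in wild-type cells) and about 45.0 kb past the end (32 in knockout and 35 in wild-type cells), stand in both libraries.

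In the plot of the Gata2 locus all 9 members are present on both sides of the axis, as their selection requires. The strongest was chr6:88251991-88252694, past the end of the gene, with a −log10 q of 26.2 in the knockout list and 27.5 in the wild-type list. Next was chr6:88116706-88117222, beside Rpn1, with 22.8 in the knockout list and 16.0 in the wild-type list. The member nearest to Gata2 itself, chr6:88189682-88189898, had a pileup of 19 in knockout and 20 in wild-type cells. The remaining 6 had pileups between 7 and 16 in knockout and between 5 and 15 in wild-type cells.

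Mast cell effector genes had 9 members by 8 of 27 genes. Cpa3, the granule carboxypeptidase gene, had a region 1758 bp upstream (chr3:20243967-20244247) with a pileup of 24 in knockout and 21 in wild-type cells. Tph1, which encodes the enzyme that starts serotonin synthesis in mast cells, had one 3282 bp upstream (chr7:46675819-46676446) with a pileup of 30 in knockout and 33 in wild-type cells. The IgE receptor alpha chain gene Fcer1a had a weak one 10546 bp upstream, with 6 fragments in knockout and 5 in wild-type cells. Cma1, a chymase gene, had one with 12 in both. At the receptor genes for IL-3, Csf2rb2 had 2 members (pileups 21 and 13 in knockout, 12 and 14 in wild-type cells) and Csf2rb had 1 (12 in knockout and 11 in wild-type cells). Pileups of these genes differed between the libraries by at most 3 fragments except at the first Csf2rb2 region.

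Transcription factor genes of mast cells had 20 members by 12 of 30 genes. Runx1 had 3, all upstream, at 26297, 41263 and 48051 bp, with pileups of 8, 11 and 12 in knockout and 6, 17 and 12 in wild-type cells. Fli1, an ETS factor gene, had 3 with pileups of 15, 11 and 4 in knockout and 15, 8 and 7 in wild-type cells. Cbfa2t3, which encodes a co-repressor that joins TAL1 and GATA complexes, had 2 upstream, the stronger with 26 in knockout and 27 in wild-type cells. Bhlhe40 had 3, the strongest 28862 bp away with 19 in knockout and 26 in wild-type cells, and the Ikaros family gene Ikzf2 had 2, with 14 and 18 in knockout and 8 and 22 in wild-type cells.

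IgE receptor and Kit signalling genes had 18 members by 12 of 34 genes. The adaptor gene Lcp2 (SLP-76) had 1 member 15230 bp upstream, with a pileup of 24 in knockout cells (15.4 to 35.7) and 13 in wild-type cells (6.92 to 22.2), and 1 downstream with 20 in knockout and 15 in wild-type cells. Sos1, a Ras activator gene, had 3 upstream, with pileups of 14, 12 and 6 in knockout and 10, 11 and 9 in wild-type cells. Grb2, the adaptor that carries Sos1, had 2, with 21 and 13 in knockout and 17 and 10 in wild-type cells. Spry1, a Ras pathway inhibitor gene, had 2 downstream, with 14 and 10 in knockout and 8 and 7 in wild-type cells. Pik3r1, a PI3 kinase subunit gene, had 2 downstream, with 9 and 10 in knockout and 5 and 10 in wild-type cells. The intervals of the first Lcp2 region overlapped.

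Cytokine and chemokine genes had 18 members by 11 of 31 genes. The region 39220 bp upstream of Il6 (chr5:29973602-29973894) was among the strongest of the knockout list, at rank 10 of the members, with a −log10 q of 36.2 in the knockout list and 17.0 in the wild-type list. Its pileup was 29 in knockout cells (19.4 to 41.6) and 16 in wild-type cells (9.15 to 26.0), and these intervals overlapped. Il1b had 4 members, all upstream and between 2227 and 32661 bp away, with pileups of 6 to 12 in knockout and 7 to 13 in wild-type cells. Ccl1, a chemokine gene that activated mast cells express, had 3 upstream, the farthest, at 34590 bp, with a pileup of 33 in both libraries. Il9, a mast cell growth factor gene, had 2 downstream, with 15 and 8 in knockout and 10 and 10 in wild-type cells. Vegfa had 2 weak ones 42283 and 43541 bp downstream, with 5 and 6 in knockout and 8 and 8 in wild-type cells.

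Inflammatory transcription factor genes had 20 members by 15 of 38 genes. The immediate early gene Fos had 3, of which the one 18338 bp upstream had a pileup of 22 in knockout and 26 in wild-type cells, and the other two at most 8 in either. Irf1 had 3, with pileups of 7, 17 and 11 in knockout and 10, 19 and 12 in wild-type cells. Nfkb1 had 2, with 16 and 9 in knockout and 13 and 11 in wild-type cells. Egr3 (15 in knockout and 21 in wild-type cells) and Nr4a1 (17 in knockout and 13 in wild-type cells) had 1 each.

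Across all protein-coding genes 1683 of 21631 (7.78%) had a member, and each of these 5 lists had a larger share. It was 29.6% of effector genes (interval 13.8 to 50.2), 40% of mast cell factor genes (22.7 to 59.4) and 35.3% of signalling genes (19.7 to 53.5). For cytokine genes it was 35.5% (19.2 to 54.6) and for inflammatory factor genes 39.5% (24.0 to 56.6). Shared regions of any kind were also nearest to many of these genes. They were so for 19 of 27 effectors, 27 of 30 mast cell factors and 29 of 34 signalling genes. For cytokines it was 17 of 31 and for inflammatory factors 31 of 38. Over all genes it was 8054 of 21631, and 20.9% of those 8054 had a member. Whether the larger shares are particular to members was not tested. The space around genes also differed: the median gene had 18.001 kb of intergenic DNA in its zone for effectors, 51.6 kb for mast cell factors, 28.2 kb for signalling genes, 27.2 kb for cytokines and 39.3 kb for inflammatory factors, against 16.6 kb over all genes. Per Mb of that space there were 13.3 members for mast cell factors (8.12 to 20.5), 13.1 for effectors (5.99 to 24.9), 15.2 for signalling genes (9.04 to 24.1), 16.1 for cytokines (9.55 to 25.5) and 13.4 for inflammatory factors (8.19 to 20.7), against 3.43 over all genes. Lists of other genes had densities in the same range. Housekeeping genes had 16.8 (3 of 18 genes; 5.45 to 39.2), neutrophil genes 14.4 (5 of 18; 4.66 to 33.5), and erythroid and megakaryocyte genes 16.5 (4 of 18; 5.35 to 38.5). Lower values were found for macrophage genes with 7.18 (4 of 20; 2.33 to 16.7), lymphoid genes with 2.12 (2 of 29; 0.257 to 7.66), and neuron and liver genes with 0 (0 of 24; up to 4.01). Basophil genes had 1 member, that of Fcer1a, by 1 of 6 genes.

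Members by genes of other cell types were both strong and weak. Pf4, a platelet chemokine gene, had one 2307 bp downstream with a pileup of 21 in both libraries, and Gp9, a platelet receptor gene, one with 5 in knockout and 4 in wild-type cells. Among neutrophil genes, Ltf had one with 14 in knockout and 15 in wild-type cells and Cebpe one with 14 in both, while S100a9 (5 in knockout and 7 in wild-type cells), Fcnb (6 in knockout and 7 in wild-type cells) and Ctsg (7 in knockout and 5 in wild-type cells) had weak ones. Among macrophage genes, Marco had 2, with 7 and 17 in knockout and 6 and 10 in wild-type cells, and Cd163 (6 in knockout and 4 in wild-type cells) and Cx3cr1 (5 in knockout and 6 in wild-type cells) 1 each. For housekeeping genes, Actb had 2, with 22 and 10 in knockout and 19 and 16 in wild-type cells.

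Most members stood alone among the set. When regions no more than 12500 bp apart were chained, 441 members (21.6%; interval 19.8 to 23.5) fell into 205 clusters of at least 2. Only members were chained, so shared regions of other classes nearby do not count. With all 12871 shared regions chained at the same distance, 4019 (31.2%) fell into 1782 clusters, so most of those also stood alone. That set holds more regions, so the 2 shares are not directly comparable. Only 28 clusters of members had 3 or more, and the 3 largest of these had 4 each. These lay by Rpn1, in the stretch described before Gata2, by Il10ra, the IL-10 receptor gene, and Tmprss13, and by Pdhx, a mitochondrial enzyme subunit gene. At Il10ra and Tmprss13 (chr9:45274226-45301139) the pileups were 24, 11, 9 and 16 in knockout and 14, 9, 11 and 19 in wild-type cells. At Pdhx they were 9, 9, 5 and 9 in knockout and 9, 8, 6 and 6 in wild-type cells. The next by size and strength were those by Eefsec and by Chsy1, a chondroitin synthase gene, with 3 each.

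By nearest gene, 1398 of the 1683 genes had 1 member, 225 had 2, 50 had 3 and 10 had 4 or more. Bahcc1 led with 6, of which 3 lay upstream and 3 downstream, with pileups from 4 to 18 in knockout and from 5 to 20 in wild-type cells. After Rpn1, with 5, came Uspl1, Dlg2, Cd69, Srp9, Pdhx, Il1b, Phlpp1 and Ift57 with 4 each. Cd69, an activation marker gene of blood cells, had pileups of 15, 11, 16 and 15 in knockout and 15, 9, 14 and 11 in wild-type cells. By chromosome, members made up between 11.9% (chromosome 19) and 19.7% (chromosome 1) of the shared regions.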

How the data were processed

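ATAC-seq peaks of 1 knockout and 1 wild-type library were analysed. Per the submitters' processing notes, reads passed through Trimmomatic, Bowtie2 and MACS2 on mm10 (GRCm38). Versions, parameters and any Tn5 read shift, which would displace peak edges slightly, are not given in sources used here. For each peak the authors deposited a score, a fold enrichment, a −log10 p-value and a −log10 q-value, the score being 10 times the last in 100% of peaks. These served to rank peaks in their own list and as a common limit of 10. Reading the authors' fold as summit pileup plus 1 over local background plus 1, and p as the upper Poisson tail, gave a whole-number pileup for 100% of peaks (tolerance 0.001 in −log10 p).

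Computed here (SciPy 1.17.1, pandas 2.3.3, NumPy 2.4.6, Python 3.11.15) were the merged regions, distances to 21631 protein-coding gene intervals (GRCm38.p6, the build mm10 names, 1-based), densities, clusters and counts with exact 95% intervals (Clopper-Pearson or Poisson). Intergenic DNA was assigned to its nearest gene. Base content of the regions themselves was planned but not run, because no genome sequence was used here; promoter windows were taken in its place after the files were seen. Named were the 10 members with the highest lower −log10 q, those at the distance limits, up to 5 genes per list by number of members, the 10 genes and 5 clusters with most members, the 10 with the largest rank differences, and 10 fixed genes. A few genes picked in this way are not reported here. The members and gene lists were chosen with earlier results of these data known. The steps were checked on simulated data.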

Additional observations from a re-analysis of the deposited data

How the results depend on the processing

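No paired analysis was possible because the design has just 1 culture on either side. Of 69 recomputed settings of the main shares, 51 moved them by less than their interval and 18 by more. For other results, 19 of 27 were called the same and 8 moved. The number of nearest genes, 1683 (interval 1604 to 1765), was judged by a fold limit and not by its interval. It ran from 1364 with an upper limit of 25 kb to 1885 with one of 100 kb, all called the same. Members were 15.86% of shared regions, and 14.65% with genes of all types, 14.29% with a lower limit of 2.5 kb, 18.76% with an upper limit of 100 kb and 12.15% with one of 25 kb. The share past the −log10 q limit was 51.59% in the knockout list, and 55.22% with a reciprocal overlap of 50%, 56.59% when peaks had to reach 5 in −log10 q and 55.51% with equal numbers of peaks. In the wild-type list it was 41.84%, and 46.05% with reciprocal overlap and 46.73% when peaks had to reach 5. The Spearman coefficient between lists was 0.6034, and 0.7227 when ranked by pileup. Members near a knockout-only region were 7.692%, and 5.64% with equal numbers of peaks, 6.416% with all gene types and 16.51% at 10 kb. For wild-type-only regions the share was 5.341%, and 6.326% with equal numbers of peaks, where it passed the knockout-only share, and 11.42% at 10 kb. Members in clusters were 21.61%, and 19.82% with reciprocal overlap, 19.62% with all gene types, 9.897% when chained at 5 kb and 31.06% at 25 kb. Wider or narrower windows take in more or fewer regions by construction. With equal numbers of peaks the knockout count past the limit stayed at 1053, out of 1897 members in place of 2041. When peaks had to reach 5, the knockout count past the limit was 1022 of 1806 members, in place of 1053 of 2041. The wild-type count was then 844 of 1806, in place of 854 of 2041. The cause of the other moves was not tested. The planned base content of region sequences was not run.

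Median pileups of 9 to 10 fragments give single regions wide counting intervals. With 1 library per genotype, differences between the lists cannot be told apart from culture, depth or enrichment. The nearest gene is a label of position.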
